A study of Glycine max with 16 samples.

Results

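This report follows 7 soybean loci of the light reactions through the daylight hours, 3 placed under electron transport (Glyma.15G018000, Glyma.14G128500 and Glyma.17G205000) and 4 under ATP synthase (Glyma.06G277600, Glyma.19G257900, Glyma.08G206600 and Glyma.14G151400). They are 7 of the 56044 genes counted, and were taken by locus identifier from the light-reaction picture of the study. The study had drawn that picture from genes it found differentially expressed (DE) over the day in these same libraries, so the number of the 7 that change with time is a description and carries no independent weight. By their locus names, the loci lie on chromosomes 15, 14, 17, 6, 19, 8 and 14, in the order given above. No subunit or carrier name was paired with the identifiers here, and each locus is therefore called by its identifier and its heading.

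The leaves were from soybean cultivar 93B15, for which the labels name no transgene and no imposed treatment, grown in a field in Illinois and sampled while the plants were in reproductive development. The 3 leaflets of 1 uppermost, fully expanded leaf were pooled per plot, so a sample is 1 leaf and holds all leaflet cell types. There were 4 groups of 4 samples, taken at 8:00, 11:00, 14:00 and 17:00. Counted from dawn, the first was ZT2:20 and the last ZT11:20, in hours and minutes. The 4 replicates are 4 plots, each sampled on a day of its own, so plot, day and that day's weather cannot be told apart.

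In the thylakoid membrane, light drives electrons from water through photosystem II, the plastoquinone pool, the cytochrome b6f complex, plastocyanin and photosystem I to ferredoxin, from which NADP is reduced. Iron is bound in several of these carriers, as heme in the cytochromes and as iron-sulfur clusters in the Rieske protein, photosystem I and ferredoxin, and the study placed the 3 electron transport loci together as iron ion binding. The protons moved along the way turn the rotary ATP synthase, which makes the ATP used in carbon fixation. The chloroplast complex is built from subunits coded partly in the plastid and partly in the nucleus, and mitochondria have a related enzyme of their own. The loci described here are nuclear by their chromosome names, the libraries held poly-A RNA, and transcripts coded in the plastid were not analysed here.

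Total counts per library ran from 14968570 to 25691784 (median 21411331), and 36059 genes with at least 8 counts in at least 1 library were tested. Abundance is given as CPM, the count relative to the size of its library, with TMM scaling to correct for library composition, and is compared only within a gene because no transcript lengths were used. The 5 chlorophyll a/b binding loci used as markers of green leaf averaged between 333 and 9122 CPM, and 3 of them passed the plot test described below. In leaves, as in any bulk sample, fewer cells of a type and less RNA per cell cannot be told apart. Of the 7 loci, 5 had at least 8 counts in all 16 libraries. Glyma.14G128500 had them in 12 libraries, those of 8:00, 11:00 and 14:00, and Glyma.08G206600 in 2 libraries, both of 17:00.

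A gene was called when edgeR's quasi-likelihood test, in a model of time and plot, gave an adjusted p under 0.05 and the log2 fold change was at least 1. Over any pair of time points all 7 loci were called, against 33.8% of all genes tested, with Glyma.08G206600 tested only because of its 17:00 libraries. The loci did not share 1 course. Transcripts of Glyma.15G018000, Glyma.06G277600, Glyma.08G206600 and Glyma.14G151400 had their highest mean at 17:00. For Glyma.15G018000 and Glyma.06G277600 the 17:00 values were not separated from those of 14:00. Transcripts of Glyma.14G128500 and Glyma.19G257900 were most abundant in the morning, and those of Glyma.17G205000 had their highest mean at 11:00 and their lowest at 17:00.

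**Figure D1:**
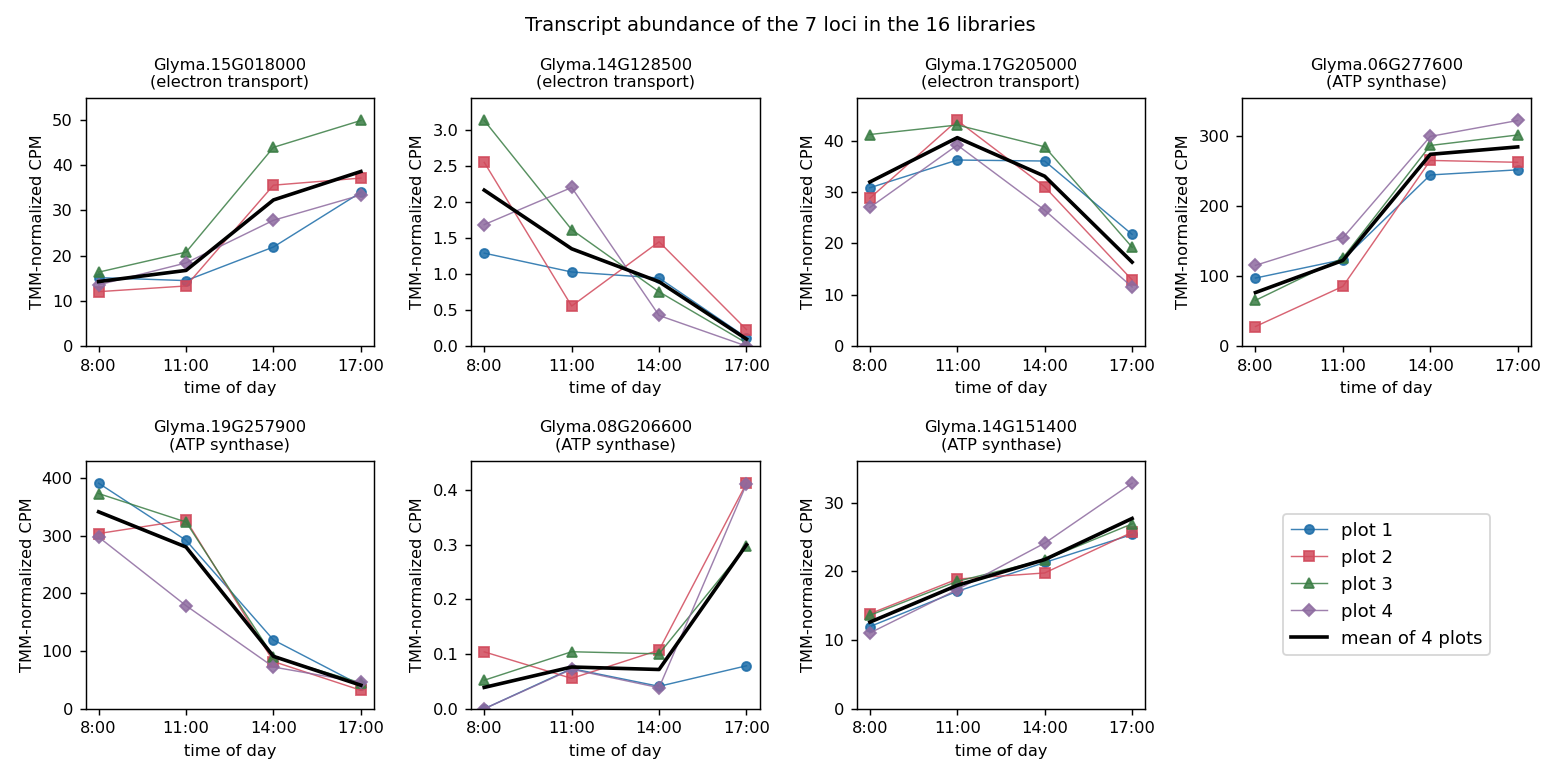
Transcript abundance (vertical axes, TMM-normalized CPM, each panel on its own scale from 0) against time of day for the 7 loci. Coloured points and thin lines are the 4 plots and the thick black line is their mean; Glyma.19G257900 falls from a mean of 341 to 40.8 CPM while Glyma.06G277600 rises from 76.2 to 284 CPM.

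Among the electron transport loci, Glyma.15G018000 rose through the middle of the day. At 8:00 its transcripts stood at 15.1, 12.02, 16.3 and 13.5 CPM in plots 1 to 4. At 11:00 they stood at 14.5, 13.3, 20.8 and 18.4 CPM, which overlapped the 8:00 values. At 14:00 the values were 21.9, 35.6, 43.9 and 27.8 CPM, each above every 8:00 and every 11:00 value. At 17:00 they were 34.0, 37.1, 49.8 and 33.4 CPM, within the span of 14:00 except for plot 3, which was the highest plot at every time point. The means were 14.3 ± 1.88, 16.7 ± 3.46, 32.3 ± 9.56 and 38.6 ± 7.69 CPM (SD, n = 4).

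From 8:00 to 17:00 Glyma.15G018000 rose 2.67-fold (log2 1.42, SE 0.155, edgeR adjusted p = 3.5e-06), and it was higher at 17:00 in all 4 plots. The rise from 8:00 to 14:00 was also called (log2 1.15, edgeR adjusted p = 4.1e-05), though without plot 2 it was 0.99, just under the fold threshold. The step from 11:00 to 14:00 passed the adjusted p but stayed under the fold threshold (log2 0.93, edgeR adjusted p = 0.0014), and it passed both without plot 1 (1.03), without plot 4 (1.05) and with library totals alone (1.12). Between 8:00 and 11:00 the log2 difference was 0.22 with an SE of 0.155 (edgeR adjusted p = 0.34), and between 14:00 and 17:00 it was 0.27 with an SE of 0.151 (edgeR adjusted p = 0.25), so neither pair of neighbours was separated.

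Glyma.14G128500 went the other way and was nearly without reads at 17:00. Its raw counts in plots 1 to 4 were 25, 49, 60 and 40 at 8:00. They were 14, 10, 31 and 61 at 11:00 and 23, 27, 15 and 11 at 14:00. At 17:00 the counts were 3, 5, 1 and 0. Every 17:00 library lay under every earlier library, whereas the first 3 time points overlapped. The highest value came at 8:00 in 3 plots and at 11:00 in plot 4.

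The means of Glyma.14G128500 were 2.16 ± 0.832, 1.35 ± 0.714, 0.893 ± 0.428 and 0.0974 ± 0.100 CPM (SD, n = 4). From 8:00 to 17:00 it fell by 4.37 on the log2 scale (SE 0.660, edgeR adjusted p = 7.4e-05). The fitted size of that fall depends on very few reads at 17:00. Summed over the 4 libraries of each time point there were 174 reads at 8:00 and 9 at 17:00, a depth-scaled ratio of 22.0 with an exact 95% interval of 11.3 to 48.9 that covers counting error only. The step from 14:00 to 17:00 was called as well (log2 -3.11, edgeR adjusted p = 0.0084), but not without plot 1 (log2 -3.17, edgeR adjusted p = 0.054). The difference between 8:00 and 14:00 lay at the threshold. It was not called by edgeR with all plots (log2 -1.26, SE 0.502, adjusted p = 0.056), and was called with DESeq2 size factors (edgeR adjusted p = 0.047), by the DESeq2 test (adjusted p = 0.029) and without plot 2 (edgeR adjusted p = 0.035).

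Glyma.17G205000 had its highest value at 11:00 and its lowest value at 17:00 in each of the 4 plots. Its transcripts stood at 30.8, 28.8, 41.2 and 27.0 CPM in plots 1 to 4 at 8:00 and at 36.2, 43.9, 43.0 and 39.1 CPM at 11:00. At 14:00 they stood at 36.0, 31.0, 38.8 and 26.4 CPM, overlapping the 8:00 values. At 17:00 they were down to 21.7, 12.9, 19.2 and 11.5 CPM, under every earlier library. The means were 31.9 ± 6.36, 40.6 ± 3.57, 33.1 ± 5.46 and 16.3 ± 4.93 CPM (SD, n = 4).

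The rise of Glyma.17G205000 into 11:00, although present in all 4 plots, did not pass the test (log2 0.37, SE 0.151, edgeR adjusted p = 0.090). Nor did the fall from 11:00 to 14:00 (log2 -0.32, SE 0.150, edgeR adjusted p = 0.18), so 11:00 was not separated from either neighbour. The fall from 11:00 to 17:00 passed (log2 -1.35, SE 0.154, edgeR adjusted p = 1.3e-05), as did that from 14:00 to 17:00 (log2 -1.03, edgeR adjusted p = 0.00046). The second was close to the fold threshold and under it without plot 2 (-0.99), without plot 4 (-0.98) and with library totals alone (-0.94). Between 8:00 and 17:00 the value dropped by 0.98 on the log2 scale (SE 0.153, edgeR adjusted p = 1.0e-04), just short of the fold threshold. With DESeq2 size factors the same difference was -1.03, and without plot 1 it was -1.16, both past the threshold. At 14:00 it differed from 8:00 by 0.05 on the log2 scale with an SE of 0.150.

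Among the ATP synthase loci, Glyma.19G257900 showed the longest fall. At 8:00 its transcripts stood at 391, 304, 373 and 298 CPM in plots 1 to 4. At 11:00 they stood at 292, 327, 324 and 179 CPM, with plot 4 already far under the other plots. At 14:00 they were 119, 81.9, 90.0 and 72.4 CPM and at 17:00 40.6, 32.1, 44.9 and 45.7 CPM. The 14:00 values lay under every morning value and the 17:00 values under every 14:00 value.

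The means of Glyma.19G257900 were 341 ± 47.6, 280 ± 69.5, 90.9 ± 20.2 and 40.8 ± 6.25 CPM (SD, n = 4). From 8:00 to 17:00 it fell 8.26-fold (log2 -3.05, SE 0.193, edgeR adjusted p = 1.8e-08), with falls of between 6.51-fold in plot 4 and 9.63-fold in plot 1. The step from 11:00 to 14:00 held the larger part of the fall (log2 -1.63, edgeR adjusted p = 1.0e-04), and the step from 14:00 to 17:00 added to it (log2 -1.13, edgeR adjusted p = 9.0e-04), at -0.98 and so under the fold threshold without plot 1. The first step was not separated from 0 (log2 -0.29, SE 0.179, edgeR adjusted p = 0.27), and in plot 2 the 11:00 value was above that of 8:00.

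Glyma.06G277600 rose from morning to midafternoon and then levelled. At 8:00 its transcripts stood at 96.9, 27.9, 65.1 and 115 CPM in plots 1 to 4, with plot 2 lowest. At 11:00 they stood at 123, 85.1, 126 and 154 CPM, again with plot 2 lowest. At 14:00 the values were 244, 265, 286 and 299 CPM and at 17:00 they were 251, 262, 301 and 321 CPM. The afternoon values were all above the morning values, while 14:00 and 17:00 overlapped.

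The means of Glyma.06G277600 were 76.2 ± 38.3, 122 ± 28.4, 273 ± 24.2 and 284 ± 32.9 CPM (SD, n = 4). From 8:00 to 17:00 it rose 4.00-fold (log2 2.00, SE 0.258, edgeR adjusted p = 1.8e-05). The size differed between plots, from 2.59-fold in plot 1 to 9.39-fold in plot 2, and without plot 2 the log2 fold change was 1.63 (edgeR adjusted p = 2.7e-05). The step from 11:00 to 14:00 was called (log2 1.21, edgeR adjusted p = 0.0056). The step from 8:00 to 11:00 passed the adjusted p but not the fold threshold (log2 0.74, edgeR adjusted p = 0.045), and that from 14:00 to 17:00 was 0.05 with an SE of 0.246 (edgeR adjusted p = 0.92).

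Glyma.14G151400 was higher at each time point than at the one before it in all 4 plots. At 8:00 its transcripts stood at 11.97, 13.8, 13.6 and 11.0 CPM in plots 1 to 4, and at 11:00 at 17.1, 18.9, 18.6 and 17.4 CPM. At 14:00 they stood at 21.3, 19.8, 21.7 and 24.1 CPM, and at 17:00 at 25.4, 25.7, 26.9 and 32.9 CPM. No values of neighbouring time points overlapped, and the order was the same in the 4 plots.

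The means of Glyma.14G151400 were 12.6 ± 1.34, 18.0 ± 0.879, 21.7 ± 1.799 and 27.7 ± 3.49 CPM (SD, n = 4). From 8:00 to 17:00 it rose 2.19-fold (log2 1.13, SE 0.119, edgeR adjusted p = 2.5e-06). Without plot 4 the log2 fold change was 0.98, which is under the fold threshold (edgeR adjusted p = 4.7e-05), and the locus was then no longer called over any pair of time points. No single step was called. The first passed the adjusted p (log2 0.51, edgeR adjusted p = 0.0069), while the step to 14:00 (log2 0.27, edgeR adjusted p = 0.15) and that to 17:00 (log2 0.35, edgeR adjusted p = 0.060) did not, although each was upward in all 4 plots.

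Glyma.08G206600 had few reads throughout, with 42 counts in the 16 libraries together. In plots 1 to 4 its raw counts were 0, 2, 1 and 0 at 8:00, then 1, 1, 2 and 2 at 11:00 and 1, 2, 2 and 1 at 14:00. At 17:00 they were 2, 9, 7 and 9, with plot 1 as low as the earlier libraries. It entered the test only through the time point where it was highest, so that a call against 17:00 followed in part from the filter, and no p is given for it. In depth-scaled terms the 17:00 sum of 27 reads was 7.91 times the 8:00 sum of 3 reads. No interval is given for this ratio, since the 17:00 counts themselves admitted the locus.

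The 17:00 values of Glyma.08G206600 overlapped those of the earlier time points. Its call over the day was lost without plot 3 and without plot 4. It is left out of the counts of calls between time points below, except in the closing section, where it is named.

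**Figure D2:**
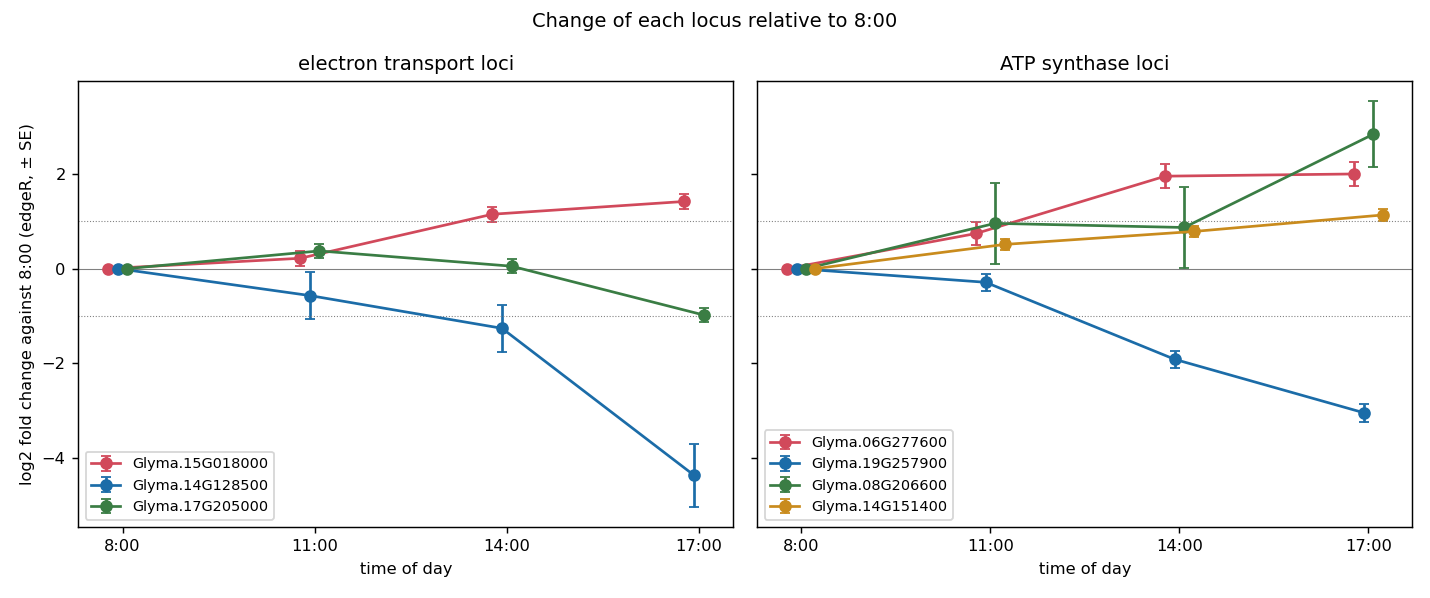
Fitted log2 fold change of each locus against 8:00 (vertical axis, edgeR, error bars are the SE) by time of day, with electron transport loci on the left and ATP synthase loci on the right. Dotted lines mark the fold threshold of 1; the 2 panels both hold loci that end above it and loci that end below 0, with Glyma.14G128500 lowest at -4.37, Glyma.06G277600 at 2.00, and Glyma.08G206600 drawn from 42 reads in all.

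Of the 6 loci other than Glyma.08G206600, edgeR called 0 higher and 0 lower between 8:00 and 11:00, where 5.46% and 3.87% of all genes were called. In that step 3 of the 6 had an unadjusted p under 0.05, and the DESeq2 test also called 0. Between 11:00 and 14:00 it called 1 higher (3.31% of all genes) and 1 lower (2.54%), which were Glyma.06G277600 and Glyma.19G257900. Between 14:00 and 17:00 it called 0 higher (3.08%) and 3 lower (4.04%), Glyma.14G128500, Glyma.17G205000 and Glyma.19G257900. At an unadjusted p under 0.05 there were 4 in either direction, and the DESeq2 test likewise called 0 higher and 3 lower. The 3 became 1 without plot 1, and 2 without plot 2, without plot 4 or with library totals alone, as given above for each locus.

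Over longer spans, 3 of these 6 loci were called higher and 2 lower at 17:00 than at 8:00, where 15.6% and 13.1% of all genes were called. Their median log2 difference was 0.08, against 0.06 over all genes. This median lies between loci that fell and loci that rose, from -4.37 to 2.00, and stands for no single locus. Between 8:00 and 14:00 the calls were 2 higher and 1 lower, against 12.2% and 10.4% of all genes. Between 11:00 and 17:00 they were 2 higher and 3 lower, against 8.84% and 8.51%. Since the loci were picked for change over the day, these shares are set side by side and nothing is read from their difference.

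Of the ATP synthase loci, Glyma.19G257900 fell while the others had their highest means at 17:00. The count ratio of Glyma.19G257900 to Glyma.06G277600 does not depend on library scaling, and only its change over the day is read, since gene lengths were not used. At 8:00 the ratio was 4.03, 10.9, 5.73 and 2.59 in plots 1 to 4. At 17:00 it was 0.162, 0.123, 0.149 and 0.142. It fell at every step in every plot, with medians of 4.88, 2.47, 0.312 and 0.146 at the 4 time points.

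The ratio of Glyma.14G151400 to Glyma.06G277600, both of which rose, moved less, with medians of 0.166, 0.143, 0.0784 and 0.0996. The 17:00 ratios of Glyma.19G257900 to Glyma.06G277600 lay close together although the 8:00 ratios did not, with plot 2 highest at 8:00 and lowest at 17:00. Of the electron transport loci, Glyma.15G018000 gained on Glyma.17G205000. The median ratio of their counts was 0.454 at 8:00, 0.435 at 11:00, 1.09 at 14:00 and 2.74 at 17:00. The 17:00 ratios ran from 1.56 in plot 1 to 2.90, and all lay above the 14:00 ratios, of which the highest was 1.15.

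**Figure D3:**
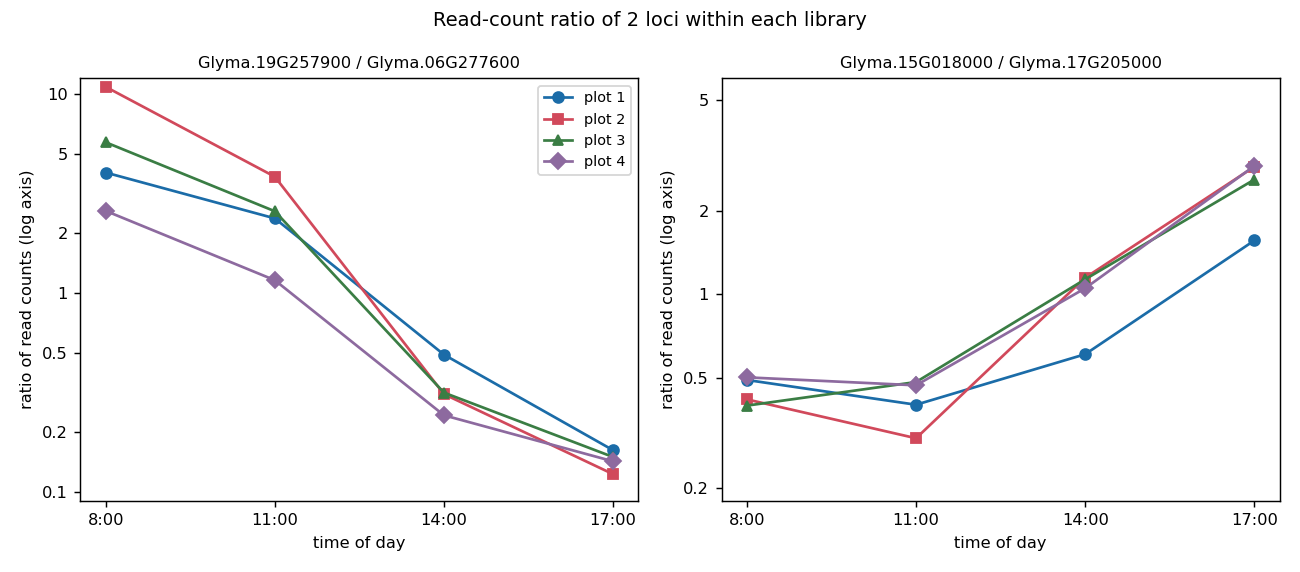
Ratio of raw read counts of 2 loci within each library (vertical axis, log scale) against time of day, one line per plot. Left, Glyma.19G257900 over Glyma.06G277600 falls from a median of 4.88 to 0.146; right, Glyma.15G018000 over Glyma.17G205000 rises from 0.454 to 2.74.

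The plots were then compared in the same model. The loci were not chosen on this factor. Of the 7 loci 0 were called between plots by edgeR, against 6.31% of all genes, and DESeq2 and the gene-wise linear model also called 0. By the DESeq2 test the adjusted p of Glyma.15G018000 was 0.023, with a largest log2 difference of 0.56 that is under the fold threshold. At an unadjusted p under 0.05 edgeR had 2, Glyma.15G018000 (edgeR adjusted p = 0.083) and Glyma.17G205000 (edgeR adjusted p = 0.12). Both had their highest mean over the day in plot 3. The largest fitted log2 difference between any pair of plots was 0.54 for Glyma.15G018000, 0.50 for Glyma.17G205000, 0.50 for Glyma.14G128500, 0.78 for Glyma.06G277600, 0.40 for Glyma.19G257900 and 0.13 for Glyma.14G151400. For Glyma.08G206600 it was 1.78 on few counts. A test that misses the threshold does not show that plots were alike.

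The 13 photosystem loci of the same picture, whose complexes take up light on either side of the electron carriers, give a comparison in the same libraries. They too had been chosen as DE over the day. Of these, 5 were called between plots, where 6.31% of all genes were called. The 5 had their lowest mean in plot 4, as had 11 of the 13. Among the 7 loci 2 had their lowest mean there. The share of all genes lowest in plot 4 was not computed, and whether the sets differ in this was not tested.

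Spread among plots also changed with the hour. For Glyma.06G277600 the SD of log2(CPM) over plots was 0.91 at 8:00, larger than in 96.1% of the 14772 genes averaging at least 10 CPM. It was 0.36 at 11:00, 0.13 at 14:00 and 0.17 at 17:00, under the medians of those genes in the afternoon (0.19 and 0.23). Glyma.15G018000 spread most at 14:00 (0.43) and Glyma.17G205000 at 17:00 (0.44). Glyma.14G151400 was the tightest of the 7 loci at 8:00, 11:00 and 14:00, and at 11:00, with an SD of 0.07, only 4.16% of those genes had a smaller one. For Glyma.14G128500 and Glyma.08G206600 the spread includes the counting error of a few reads and is not compared.

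**Figure D4:**
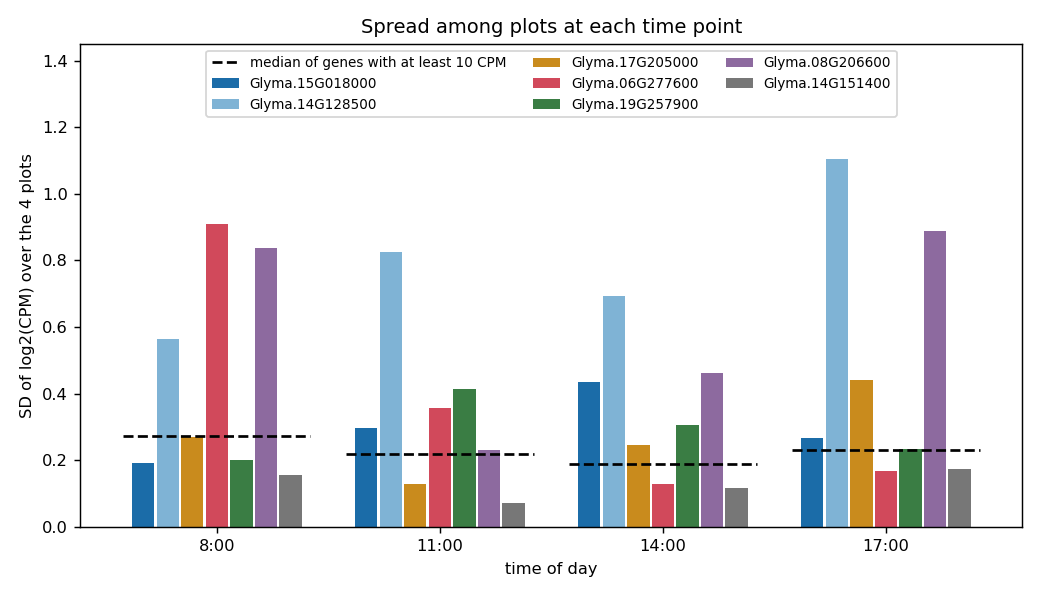
SD of log2(CPM) over the 4 plots (vertical axis, bars) for each locus at each time point, with the median of the 14772 genes averaging at least 10 CPM as a dashed line. The bar of Glyma.06G277600 drops from 0.91 at 8:00 to 0.13 at 14:00, and Glyma.14G151400 stays at 0.17 or less throughout.

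Other loci of the pathway followed mixed courses as well. The 13 photosystem loci were all called over the day, 4 of them higher and 6 lower at 17:00 than at 8:00 (median log2 -0.80). The 3 with the largest changes were lowest at 17:00 in every plot. Glyma.04G215800 fell from 526 ± 160 CPM at 8:00 to 93.3 ± 22.5 at 17:00 (SD, n = 4; log2 -2.47, edgeR adjusted p = 6.8e-09). Glyma.06G113200 had 1060 ± 141 CPM at 8:00, 1827 ± 396 at 11:00 and 384 ± 119 at 17:00. Glyma.13G127200, given by the study as Psb28, a protein of photosystem II assembly, fell by 2.19 on the log2 scale across its widest pair of time points. Between 14:00 and 17:00, 5 of the 13 fell and 0 rose by edgeR's call, while the 6 loci other than Glyma.08G206600 held 3 that fell and 0 that rose. The 3 became 1 without plot 1, as given above. Of all genes, 4.04% were called lower and 3.08% higher in that step. Both sets were picked for change over the day, so nothing is read from these counts.

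The picture also lists 1 more locus under each heading. Glyma.07G152200, under electron transport, rose from a mean of 1.39 CPM at 8:00 to 4.22 at 17:00 (log2 1.63, SE 0.270, edgeR adjusted p = 0.00017), with no overlap between those groups. Its course was low at 8:00 and 11:00 and high at 14:00 and 17:00, as for Glyma.15G018000. Glyma.07G006000, under ATP synthase, had 7 reads at 8:00 and 24 at 17:00 over the 4 libraries of each. It had at least 8 counts in 2 libraries, both of 17:00, and so entered the test only through that time point. It was not called over the day. Between 11:00 and 17:00 the fitted log2 difference was 2.75. As for Glyma.08G206600, a call against 17:00 followed in part from the filter, and no p is given.

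The genes whose log2(CPM) followed each locus most closely over the 16 libraries are given by identifier, as a description and with no p. The libraries share 4 time points and 4 plots, so any pair of genes with a similar course over the day correlates. Nearest to Glyma.19G257900 were Glyma.01G097100 and Glyma.11G084100 (Pearson r 0.984 each), and nearest to Glyma.06G277600 were Glyma.17G134500 (0.982) and Glyma.08G199000 (0.980). Glyma.14G128500 was closest to Glyma.13G213200 (0.970) and Glyma.12G002000 (0.963), the second of which averaged 29.1 CPM at 8:00 and 0.626 CPM at 17:00 and so shared the near loss of reads.

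For Glyma.14G151400 the closest genes were Glyma.06G003400 (0.968) and Glyma.15G255200 (0.967). For Glyma.17G205000 they were Glyma.10G097800 (0.962) and Glyma.04G058600 (0.957), which also had their highest mean at 11:00 and their lowest at 17:00. Glyma.15G018000 was closest to Glyma.06G056200 (0.951) and Glyma.12G227200 (0.943), and Glyma.08G206600 to Glyma.06G047000 (0.904) and Glyma.12G058200 (0.898). The ranking was unsteady, since 2 of the 14 neighbours recurred with Spearman's rho and 1 of 14 without plot 4.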

How the data were processed

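Poly-A RNA of 16 leaf samples had been sequenced. The authors trimmed reads with Trimmomatic, aligned them with TopHat and used HTSeq to count reads in genes. The submitters' processing notes name CASAVA 1.8.2. The deposited table holds raw counts, not normalized. The sources used here do not give how HTSeq treated strand and overlaps, so the handling of reads from overlapping or near-identical genes is not known.

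Columns were matched to samples by name. Genes with at least 8 counts in at least 1 library were fitted in R 4.3.3 with edgeR 4.0.16 (TMM, quasi-likelihood test, terms for time and plot, Benjamini-Hochberg over 36059 genes). Standard errors were back-calculated from the log2 fold change and the F statistic. Log2(CPM) used a prior count of 1. Libraries of 1 time point differed by 19.0 or more in chi-square per gene, so none was taken as a copy.

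The replicate number pairs libraries because, in the paper's account, each replicate was a plot sampled on its own day. Deviations from time point means correlated with a median r of 0.370 within plots (24 pairs) and -0.0915 between plots (72 pairs). The deviations of the plots at a time point cancel out, so r between plots is pushed to negative values and is not an independent baseline. The replicates are plots of 1 field, and 1 leaf each.

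Alternatives were DESeq2 1.42.0 (size factors and test), library totals, linear models of log2(TMM) for each gene, other count filters, no replicate block, no fold threshold and each plot left out. Named genes were the 7 loci, the 2 genes most correlated with each among genes averaging at least 10 CPM, the 2 further loci of the picture, and up to 3 photosystem loci with the largest change. The loci and lists were chosen with earlier results of these data known. Of the identifiers, 0 matched the RefSeq gene table held, so planned lists by product name, markers of other tissues and sequences were not used here.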

Additional observations from a re-analysis of the deposited data

How the results depend on the processing

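Under the alternatives tried, the log2 fold changes of the 7 loci (17:00 against 8:00, and the widest pair where it was another) kept their direction in all 87 recomputed values. Values of Glyma.08G206600 are among them, and its direction followed in part from the filter. The other loci were picked for change over the day, so their kept direction is a description. Of the 87 values, 82 also kept their side of the thresholds. The exceptions were Glyma.17G205000, whose difference of 17:00 from 8:00 passed the fold threshold in 4 alternatives (DESeq2 size factors, the DESeq2 test, without plot 1, without plot 3), and Glyma.14G151400 without plot 4. With no replicate block 7 loci were called over the day and 6 between 17:00 and 8:00, Glyma.08G206600 included, as with the block, and no call of these changed. Of the other pairs of time points, those of Glyma.08G206600 from 11:00 and from 14:00 to 17:00 were called with the block and not without it. Neither was called with no count filter, by the DESeq2 test, or without plot 2, plot 3 or plot 4. The pair from 14:00 to 17:00 was not called without plot 1 either. Since this locus entered only through 17:00, nothing is read from these calls. A filter of 1 CPM in 4 libraries removed Glyma.08G206600, leaving 6 loci over the day. With single plots left out, 5 to 7 loci were called over the day and 5 to 7 between 17:00 and 8:00. Glyma.08G206600, which entered only through 17:00, is among the loci counted. With all plots, 33.8% of all genes were called over the day. Of all genes, 15.6% were called higher and 13.1% lower at 17:00 than at 8:00. Since the loci were picked for change over the day, these counts are a description and carry no independent weight. The 12200 genes DE over the day became 19626 with no fold threshold. The 2275 genes differing between plots became 885 with the linear model and 3729 with no fold threshold. They were 1253 without plot 1, 1511 without plot 2, 2074 without plot 3 and 350 without plot 4. Each of these fits left out equally many libraries, and the lowest count was that without plot 4. The cause of these differences between settings was not tested. Of the 14 most correlated genes 2 recurred with Spearman's rho and 1 without plot 4. Scaling to library totals alone moved the median log2 difference of all genes between 17:00 and 8:00 from 0.06 to 0.33, and the named changes kept their directions. At this depth, loci under about 1 CPM rest on few reads. No single library stood apart from its group for any of the 7 loci by Dixon's test over 28 groups of 4.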
